A study of Mus musculus with 4 samples.

Results

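Cycling immune cells of the mouse liver were taken as the barcodes that carried at least 3 unique molecular identifiers (UMIs, 1 per captured molecule) of Mki67 and Top2a together, and 256 of 32872 kept cells met this rule. The members were thus chosen by the measured counts of those 2 genes, which are described below without a test. Barcodes were kept from 500 UMIs and 250 genes upward where mitochondrial UMIs made up no more than 10%. The study profiled CD45+ leukocytes from whole liver with a probe-based single-cell assay on fixed cells, after 1 week of tamoxifen, in 4 libraries that each pooled 5 mice. The GS library came from GS(+/delta)Hep mice, which carry a heterozygous hepatocyte deletion of glutamine synthetase (encoded by Glul). The URI library came from URI(+/delta)Hep mice, with a heterozygous hepatocyte deletion of the prefoldin-like chaperone URI (encoded by Uri1), and 2 libraries came from WT mice. All groups, WT included, received tamoxifen. The labels do not name the Cre driver, the age or the sex of the mice. The deletions are in hepatocytes, so the sorted leukocytes do not test them, and each deletion has 1 library with no replicate.

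A dividing leukocyte passes from DNA replication to mitosis on separate transcript programmes. MCM helicase subunits load onto replication origins before S phase, and E2F factors drive their transcription. The mitotic programme, with B-type cyclins, Cdk1, Aurora kinases and kinesins, comes later, and many of its promoters carry a cell cycle homology region (CHR) bound by the DREAM and MuvB complexes. Mki67 coats mitotic chromosomes and Top2a untangles replicated DNA. In liver, activated T cells, plasmablasts and bone-marrow-type myeloid precursors are among the leukocytes that can divide.

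The promoters of the 2 genes that defined membership are shown with those of Ccnb2 and Cdk1, which drive entry into mitosis, and of Mcm6, a replication helicase subunit, because the lists of mitotic and replication genes described below differed in these motifs. Sequences are from RefSeq (GRCm38.p6), 250 bases before to 50 bases after each annotated start, 5′ to 3′ on the gene's strand. Capitals mark matches on either strand. The CHR was searched as TTTGAA and, in a variant form, as TTCGAA. The NF-Y box was searched as its core letters CCAAT. The E2F site was searched as TTTCCCGC and, in a variant form, as TTTGGCGC.
Mki67, chr7:135716330-135716629, minus strand: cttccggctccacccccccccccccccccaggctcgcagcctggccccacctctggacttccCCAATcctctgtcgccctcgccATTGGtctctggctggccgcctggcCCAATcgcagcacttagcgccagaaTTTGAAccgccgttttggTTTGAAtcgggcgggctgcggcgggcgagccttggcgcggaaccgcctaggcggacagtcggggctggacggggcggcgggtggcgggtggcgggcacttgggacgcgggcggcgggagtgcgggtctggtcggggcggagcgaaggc
Top2a, chr11:99024140-99024439, minus strand: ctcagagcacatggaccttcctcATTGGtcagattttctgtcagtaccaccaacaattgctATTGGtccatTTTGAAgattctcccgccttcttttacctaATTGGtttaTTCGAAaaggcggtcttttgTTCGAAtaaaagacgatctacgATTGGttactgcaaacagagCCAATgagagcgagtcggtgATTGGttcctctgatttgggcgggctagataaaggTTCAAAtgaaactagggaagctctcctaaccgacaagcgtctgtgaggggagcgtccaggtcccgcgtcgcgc
Ccnb2, chr9:70421505-70421804, minus strand: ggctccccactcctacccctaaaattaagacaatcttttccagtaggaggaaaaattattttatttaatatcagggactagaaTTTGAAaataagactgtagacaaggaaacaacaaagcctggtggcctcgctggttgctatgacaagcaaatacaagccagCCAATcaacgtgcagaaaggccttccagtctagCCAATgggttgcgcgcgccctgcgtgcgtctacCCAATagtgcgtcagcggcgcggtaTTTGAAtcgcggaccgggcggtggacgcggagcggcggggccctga
Cdk1, chr10:69352863-69353162, minus strand: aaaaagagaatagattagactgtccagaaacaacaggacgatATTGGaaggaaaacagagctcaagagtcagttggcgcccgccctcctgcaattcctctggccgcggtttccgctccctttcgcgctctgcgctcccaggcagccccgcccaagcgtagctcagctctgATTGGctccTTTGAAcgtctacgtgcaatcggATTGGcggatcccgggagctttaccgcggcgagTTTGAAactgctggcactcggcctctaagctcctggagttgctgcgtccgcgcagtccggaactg
Mcm6, chr1:128359656-128359955, minus strand: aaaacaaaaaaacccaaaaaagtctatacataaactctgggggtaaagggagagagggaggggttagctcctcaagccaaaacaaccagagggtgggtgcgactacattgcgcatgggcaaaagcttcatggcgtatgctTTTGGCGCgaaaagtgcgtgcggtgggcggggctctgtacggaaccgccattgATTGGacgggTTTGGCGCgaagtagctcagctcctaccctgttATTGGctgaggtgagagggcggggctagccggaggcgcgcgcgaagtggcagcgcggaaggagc

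Of the 129 genes in 10 cell cycle lists, 103 had a promoter in the table. A CHR motif stood in 34 of 44 promoters of the 4 mitotic lists (77.3%), in 6 of 28 promoters of the 2 replication lists (21.4%) and in 5854 of 27025 promoters of all genes (21.7%). An E2F motif stood in 2 of the 44 mitotic promoters (4.55%), in 9 of the 28 replication promoters (32.1%) and in 486 of all 27025 (1.80%). A CCAAT motif, bound by NF-Y, stood in 35 of 44 (79.5%), 19 of 28 (67.9%) and 11096 of 27025 (41.1%) in the same order. The first CHR base lay 116 and 98 bases upstream of the start in Mki67, while Cdk1 had its nearest CHR 15 bases upstream and Mcm6 held 2 E2F motifs and no CHR. A match is a description of the letters in these windows and does not show binding.

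The 4 genes that mark cycling cells were present in the members. Ccnb2, which played no part in the rule, was at 288 CPM (UMIs of the gene per 1000000 UMIs of the cells summed) in GS members, 235 in URI members, and 415 and 342 in members of WT replicates 1 and 2. In all other kept cells of the same libraries Ccnb2 was at 2.5, 2.6, 3.3 and 3.3 CPM. Ccna2, the S and G2 phase cyclin, was at 250, 230, 383 and 197 CPM in members of the GS, URI, WT replicate 1 and WT replicate 2 libraries, against 0.87, 0.87, 0.54 and 0.98 CPM in the other cells. At least 1 UMI of Ccnb2 or Ccna2 was found in 158 of 256 members. Mki67 was at 847, 636, 1172 and 737 CPM in members, and Top2a at 728, 397, 761 and 363 CPM, in the same order of libraries, which the rule itself set high. The leukocyte gene Ptprc (CD45) had a UMI in 247 of 256 members. Hepatocyte markers summed to 2.5 CPM in members, and endothelial markers were at 0. The macrophage list was at 43.6 CPM in members against 74.0 CPM in the other cells, with C1qa at 0, and the Kupffer cell list at 0.849 against 0.456 CPM. Of the 2 URI cells with at least 2 UMIs of the Kupffer cell gene Clec4f, 1 was a member.

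The members were deep cells, and depth bears on membership because a fixed count of UMIs is reached more easily in a larger profile. Their median was 11803 UMIs in GS, 13948 in URI, 11389 in WT replicate 1 and 6839 in WT replicate 2, against 4427, 4941, 3744 and 2654 UMIs in the other cells. Just inside the threshold, at 3 UMIs, lay 19, 30, 14 and 3 cells of the GS, URI, WT replicate 1 and WT replicate 2 libraries, and just outside it, at 2 UMIs, lay 71, 111, 62 and 35 cells. RNA outside cells, measured in barcodes under 100 UMIs, held Mki67 at 36.1, 26.0, 41.5 and 11.5 CPM in the same order. In the kept cells outside the class it was at 6.27, 5.85, 4.51 and 4.45 CPM. The rule set that level low by taking out the members, so these values do not compare free RNA with all kept cells. In 107 of the 256 members the sum of Mki67 and Top2a was 3 to 5 UMIs, and the highest reached 132.

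Cycling cells were about 1% of each library except WT replicate 2. The rule took 64 of 7846 cells in GS (0.816%, exact Clopper-Pearson 95% interval 0.629 to 1.04), 96 of 9095 in URI (1.06%, 0.856 to 1.29), 84 of 8478 in WT replicate 1 (0.991%, 0.791 to 1.23) and 12 of 7453 in WT replicate 2 (0.161%, 0.0832 to 0.281). The GS share lay between those of the 2 WT libraries and the URI share just above both. With every cell thinned to 2000 UMIs the shares were 0.371% in GS, 0.428% in URI, 0.553% in WT replicate 1 and 0.0943% in WT replicate 2, so the last library stayed lowest. Among cells of 5000 to under 20000 UMIs alone the shares were 1.54% (47 of 3046) in GS, 1.2% (53 of 4420) in URI, 2.41% (58 of 2402) in WT replicate 1 and 1.16% (10 of 859) in WT replicate 2, and the interval of WT replicate 2 (0.560 to 2.13) then reached past both deletion libraries. WT replicate 2 was the shallowest library. No test was run on shares, because each deletion had 1 library and cells are not replicates, and intervals cover counting error only.

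**Figure D1:**
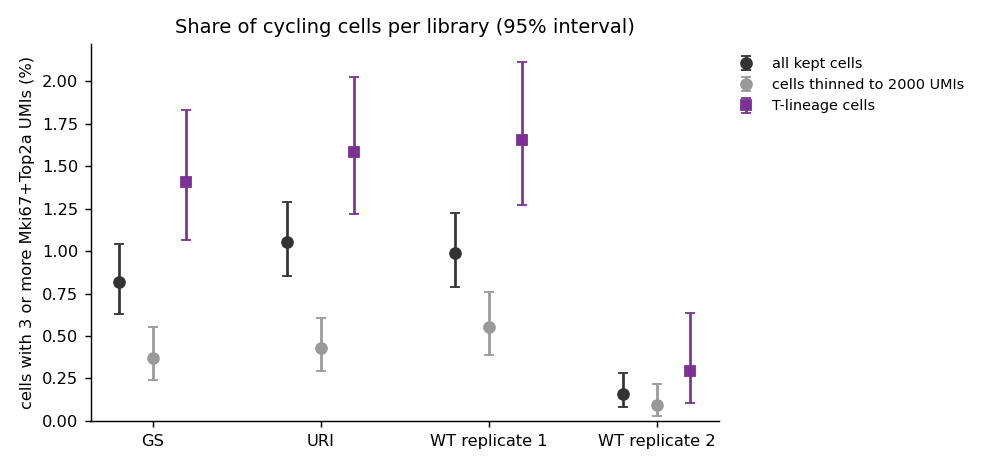
Share of kept cells with at least 3 UMIs of Mki67 and Top2a together, in percent, for each library, over all kept cells, after thinning every cell to 2000 UMIs, and among T-lineage cells. Points are shares and bars are exact 95% intervals, and WT replicate 2 lies lowest by each measure.

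Each member was given the lineage whose marker had the most UMIs: Cd3e (T cell receptor complex), Ncr1 (the NK receptor NKp46), Cd79a (B cell receptor), Csf3r with Camp (granulocytes) or Csf1r (monocytes and macrophages). T-lineage cells made up 55 of 64 members in GS (85.9%), 62 of 96 in URI (64.6%), 62 of 84 in WT replicate 1 (73.8%) and 6 of 12 in WT replicate 2 (50.0%). Over all libraries 185 of 256 members (72.3%) were T-lineage, against 41.2% of the other kept cells. B-lineage members numbered 6 in GS, 8 in URI, 13 in WT replicate 1 and 2 in WT replicate 2, and NK-lineage members 2, 4, 7 and 1 in the same order. Granulocyte-lineage members numbered 0 in GS, 15 in URI, 2 in WT replicate 1 and 0 in WT replicate 2, and the 5 monocyte-lineage members were all in URI. A further 2 members were tied and 4 had no marker. The lineage call is a rule on single transcripts: where a UMI of exactly 1 lineage was required, T-lineage members were 68.8% in GS, 43.8% in URI, 59.5% in WT replicate 1 and 25.0% in WT replicate 2.

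**Figure D2:**
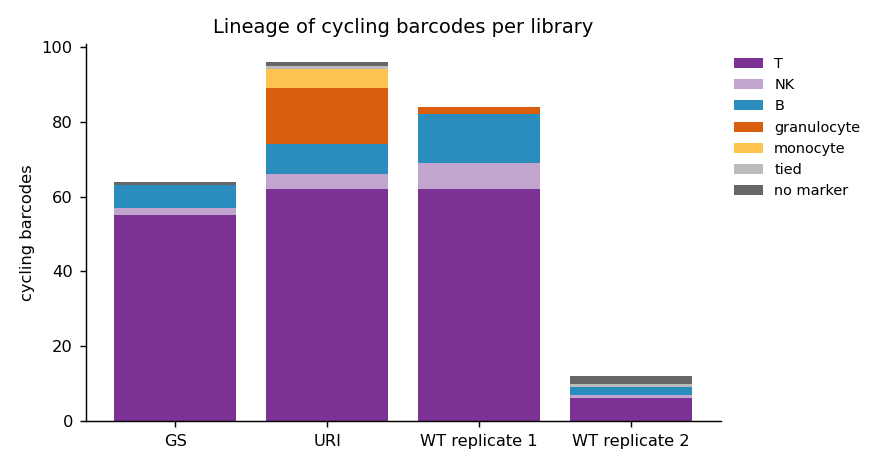
Number of cycling barcodes per library, stacked by lineage rule, with the library on the x axis and barcodes on the y axis. T-lineage barcodes fill most of the GS, URI and WT replicate 1 columns, and the URI column alone carries a broad granulocyte and monocyte block, of which 7 granulocyte barcodes agree within sampling noise.

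The counts of some member barcodes agreed within sampling noise. In URI, 7 granulocyte-lineage barcodes of 2874 to 4055 UMIs agreed within sampling noise in all 21 pairs (chi-square per gene 0.767 to 1.03, lowest p 0.365), whereas none of the 1092 other URI granulocyte barcodes came below a ratio of 1.2 against them, the lowest being 1.51. All member barcodes stay in the counts given here unless stated. Smaller agreeing groups were 1 pair of T-lineage barcodes in GS and 4 groups of 2 or 3 barcodes in WT replicate 1, among them a pair of B-lineage barcodes of 11611 and 20243 UMIs compared over 1621 genes. Another WT replicate 1 pair, of 1673 and 30902 UMIs, held 1 barcode called B-lineage and 1 called T-lineage. In WT replicate 1, 22 pairs agreed, more than its groups hold, so agreement alone does not show that a barcode repeats another. Counted once, the classes held 63, 90, 79 and 12 cells in GS, URI, WT replicate 1 and WT replicate 2. The libraries were multiplexed in the same droplets, and 1480 to 2076 droplet barcodes were shared by kept cells of each pair of libraries. No member shared a droplet with a member of another library.

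T-lineage cells made up most of the cycling cells and had a cycling share of 1.36% over all libraries, against 0.436% of NK-lineage, 0.368% of B-lineage, 0.377% of granulocyte-lineage and 0.817% of monocyte-lineage cells. The order was not the same in each library, since in URI 2.73% of monocyte-lineage cells cycled. Among cells of 5000 to under 20000 UMIs the share was 2.02% of T-lineage and 1.10% of B-lineage cells. Of T-lineage cells, 55 of 3903 (1.41%) cycled in GS, 62 of 3911 (1.59%) in URI, 62 of 3749 (1.65%) in WT replicate 1 and 6 of 2045 (0.293%) in WT replicate 2. Among the 185 T-lineage members, 81 held Cd4 but no Cd8 transcript, 44 held Cd8a or Cd8b1 but no Cd4, 38 held both and 22 neither. Summed over libraries, the other T-lineage cells leaned the other way. Of 13423, 4378 held Cd4 alone (32.6%) and 5275 held Cd8 alone (39.3%), but in URI 1413 held Cd4 alone and 1384 Cd8 alone. Both were held by 20.5% of cycling and 8.17% of other T-lineage cells. With cells thinned to 2000 UMIs, Cd4 alone was in 36.4% of cycling and 28.3% of other T-lineage cells. Cd8 alone was then in 25.5% and 39.6%. Summed Cd8a and Cd8b1 was at 720 CPM in GS, 542 in URI, 826 in WT replicate 1 and 498 in WT replicate 2 cycling T cells, against 1054, 1024, 1610 and 724 CPM in the other T cells of those libraries. The level was lower in cycling T cells in every library.

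Regulatory T cells, which restrain other T cells and are specified by Foxp3, had a higher share of cycling cells than the T lineage as a whole, and their transcription factor stood higher in the cycling T cells of 3 libraries. Foxp3 had a UMI in 24 of 185 cycling T-lineage cells (13%) and in 376 of 13423 others (2.80%), and with cells thinned to 2000 UMIs in 9.24% and 2.03%. Foxp3 stood at 116 CPM in GS, 72.0 in URI, 137 in WT replicate 1 and 0 in the 6 cycling T cells of WT replicate 2, against 16.2, 27.7, 27.1 and 29.9 CPM in the other T cells. Seen from the other side, 17 of 202 Foxp3-carrying T cells of 5000 to under 20000 UMIs cycled (8.42%, interval 4.98 to 13.1), against 132 of 6548 T-lineage cells of that depth (2.02%, 1.69 to 2.39). By library these were 4 of 44 in GS, 6 of 81 in URI, 7 of 58 in WT replicate 1 and 0 of 19 in WT replicate 2. Among cells outside the class that should lack Foxp3, a UMI was found in 91 of 7844 B-lineage cells (1.16%, median depth 3166 UMIs) and 30 of 4488 granulocyte-lineage cells (0.668%, 3112 UMIs), against the 2.80% of T-lineage cells (4899 UMIs).

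Genes of T cell activation differed between cycling and other T cells. Ctla4, an inhibitory receptor of activated and regulatory T cells, was at 161 CPM in GS, 180 in URI, 298 in WT replicate 1 and 451 in WT replicate 2 cycling T cells, against 72.0, 73.7, 53.4 and 78.0 CPM in the others. Gzmb, a cytotoxic granule protease, was at 359, 563, 442 and 902 CPM in cycling T cells against 320, 294, 290 and 368 CPM in the others. In WT replicate 2, 2 of 6 cycling T cells held Gzmb. The effector T list of 7 genes, which includes Gzmb, was at 2764, 4670, 3185 and 2824 CPM in cycling T cells. In the others it was at 4689, 3742, 4287 and 3337 CPM, so it was higher in cycling cells of URI only. Icos, a costimulatory receptor, was higher in cycling T cells of GS (163 against 123 CPM), URI (170 against 119) and WT replicate 1 (367 against 119), but lower in WT replicate 2 (47.5 against 115). Il7r, the receptor of resting and memory T cells, was at 197, 202, 221 and 71.2 CPM in cycling T cells against 494, 552, 741 and 272 CPM in the others. The immediate early and dissociation list (10 genes, among them Fos and Jun) was at 4810, 5888, 2252 and 4200 CPM in cycling T cells against 9045, 8828, 5257 and 12705 CPM in the others. These are values of selected cells and carry no test.

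Within the T lineage, the cell cycle lists differed in how far cycling cells stood above the others. The mitotic kinase and cyclin list (15 genes) was 13.1 times its level in the other T cells when all libraries were summed, and the kinetochore, spindle and cytokinesis list (19 genes) 14.4 times. Replication licensing (17 genes) and nucleotide and DNA synthesis (17 genes) were each 3.8 times as high, and condensin and cohesin genes 3.0 times. Membership was set by Mki67 and Top2a, whose promoters carry CHR motifs as most mitotic-list promoters do, so the rule bears on these ratios. The ratios also depend on the level in the other T cells. That level was 140 CPM for the mitotic kinase and cyclin list and 674 CPM for replication licensing. The G1 cyclins and their kinases were at 0.9 times, CDK inhibitors at 1.0 and p53 targets at 1.0 times. All 19 kinetochore genes and all 17 licensing genes were higher in cycling cells in the sum, while only 6 of 9 G1 genes were. The mitotic kinase Aurkb was at 80.9 CPM in all cycling T cells against 0.62 in the others. The G1 cyclin Ccnd2 stood at 491 CPM in cycling T cells against 761 in the others, and the CDK inhibitor Cdkn1b (p27) at 362 CPM against 560. The E2F repressor E2f8 was at 84.1 against 1.00 CPM, whereas Myc was at 203 against 284 CPM.

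**Figure D3:**
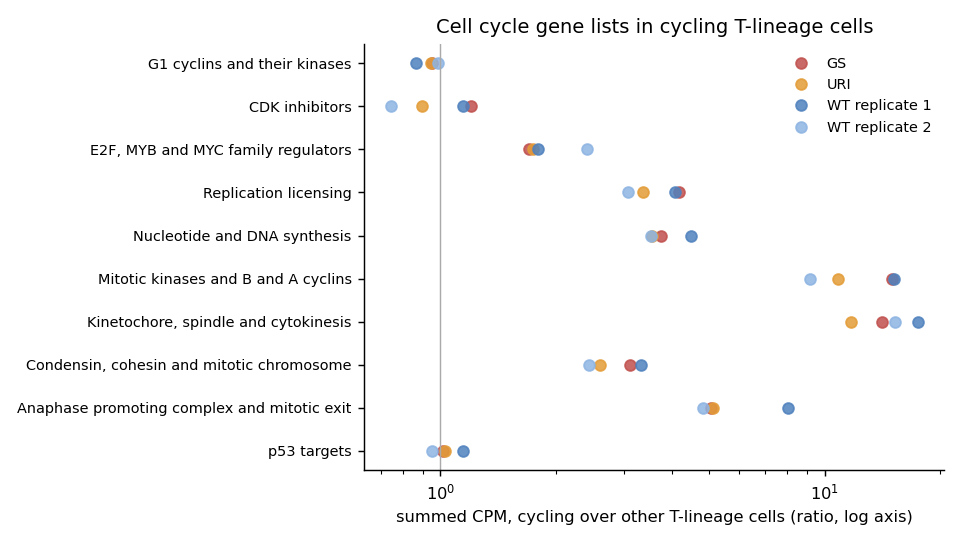
Ratio of summed CPM in cycling T-lineage cells to that in other T-lineage cells of the same library, for each of 10 cell cycle lists, on a log axis, with 1 point per library. The mitotic and kinetochore lists lie farthest right in each library, and G1 cyclins and p53 targets lie near 1.

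Individual members differed in which part of the cycle their transcripts came from. Replication-list UMIs exceeded mitotic-list UMIs in 148 of 256 members, mitotic-list UMIs were higher in 103 and both were equal in 5. The condensin and cohesin list was not counted among the mitotic lists for this split. More mitotic UMIs were found in 22 of 64 GS members, 40 of 96 URI members, 36 of 84 WT replicate 1 members and 5 of 12 WT replicate 2 members. By lineage, 74 of 185 T, 4 of 14 NK and 7 of 29 B-lineage members leaned to mitosis, and 15 of 17 granulocyte-lineage members did, of which 7 were the agreeing barcodes. These lists differ in size and in level, so the split compares members with each other and gives no phase.

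**Figure D4:**
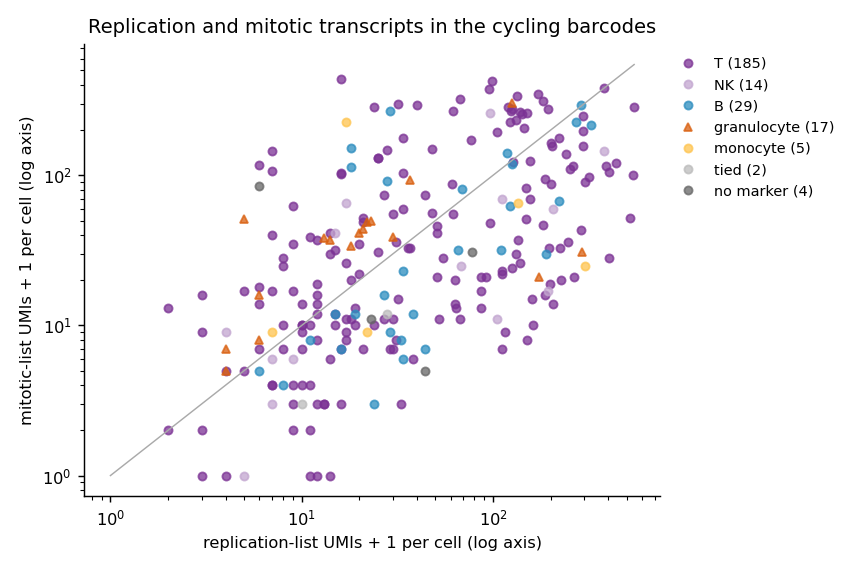
UMIs of the 2 replication lists (x axis) and of the mitotic lists (y axis), each plus 1, per cycling barcode on log axes, coloured by lineage. The condensin and cohesin list is left out of the mitotic lists here. The diagonal marks equal counts, and 15 of 17 granulocyte-lineage triangles lie above it.

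Barcodes rich in Jchain, a gene of antibody-secreting cells, met the membership rule more often than the lineages as a whole. Jchain, which joins secreted IgA and IgM units, was at 10 UMIs or more in 24 members, 6 of them in GS, 7 in URI, 9 in WT replicate 1 and 2 in WT replicate 2. Of all kept barcodes at that level, 6 of 25 cycled in GS (24%), 7 of 14 in URI (50.0%), 9 of 35 in WT replicate 1 (25.7%) and 2 of 15 in WT replicate 2 (13.3%), with intervals that all overlapped. The limit of 10 UMIs bears on these shares: from 5 Jchain UMIs, 6 of 49 cycled in GS (12.2%), 7 of 14 in URI, 9 of 83 in WT replicate 1 (10.8%) and 2 of 16 in WT replicate 2 (12.5%), which made 14.8% over all libraries against 27.0% from 10 UMIs. Among those of 5000 to under 20000 UMIs, 7 of 33 cycled (21.2%, interval 8.98 to 38.9), against 10 of 1430 B-lineage cells with fewer Jchain UMIs (0.699%, 0.336 to 1.28). By library the 7 were 0 of 4 in GS, 1 of 6 in URI, 4 of 9 in WT replicate 1 and 2 of 14 in WT replicate 2. The 24 were deep cells with a median of 27340 UMIs, and 9 of them had only 3 to 5 UMIs of Mki67 and Top2a. Their mitotic kinase and cyclin list stood at 153 CPM in GS, 768 in URI, 2030 in WT replicate 1 and 1751 in WT replicate 2. In the other barcodes with at least 10 Jchain UMIs it stood at 188, 166, 239 and 280 CPM. The GS members were thus not above those barcodes in this list, while their replication licensing list was at 559 against 148 CPM. Igha, the IgA heavy chain, was at 100 UMIs or more in 20 of the 24, Ighm in 2 and Ighg1 in 1.

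The lineage rule split this class. It called 12 of the 24 B-lineage and 11 T-lineage, and 1 had no marker. The 11 held 2 to 21 Cd3e UMIs beside 17 to 1038 Jchain UMIs. None was marked as a doublet by Scrublet, which marked 0 of all 64 GS members and 0 of all 84 WT replicate 1 members. The absence of a mark therefore does not show that the 11 are single cells. Leaving these barcodes out, the plasma cell list stood at 274 CPM in GS, 209 in URI, 247 in WT replicate 1 and 190 in WT replicate 2 cycling T cells. With them it stood at 3523, 3602, 1311 and 190 CPM. In the 24 members the T cell list summed to 1513 CPM, against 5151 CPM in the cycling T-lineage cells without them.

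The 17 B-lineage members with fewer than 10 Jchain UMIs were few and mixed. The T cell list was at 3097 CPM in them against 779 CPM in the other B-lineage cells with fewer than 10 Jchain UMIs. Cd3e had a UMI in 11 of the 17. Among all 29 B-lineage members, 1 held 53 UMIs of Mcpt8 and 1 held 38 UMIs of Gata2, both genes of basophils and mast cells. The part that a second cell or free RNA plays in these profiles was not tested.

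**Figure D5:**
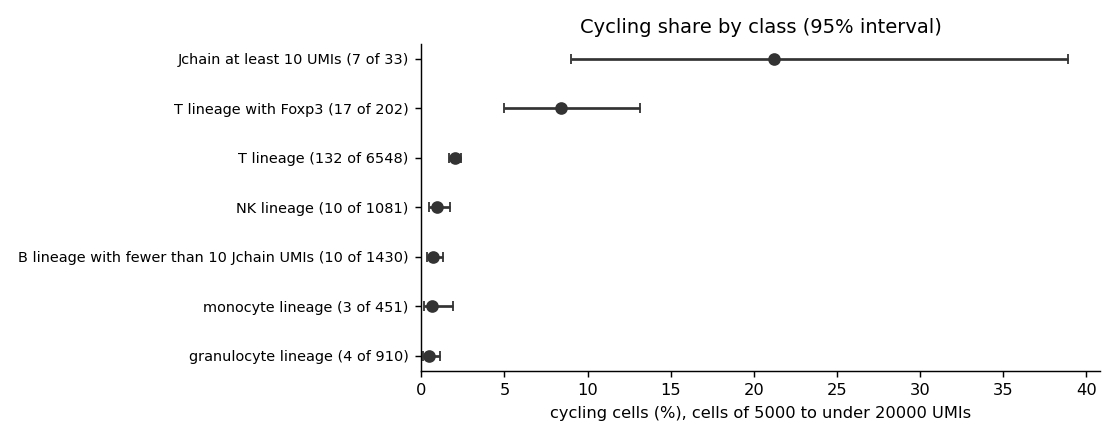
Percent of cells that cycled in each class among kept cells of 5000 to under 20000 UMIs, with all 4 libraries summed and counts in the row labels. Points are shares and bars exact 95% intervals, and the Jchain class (7 of 33) and Foxp3-carrying T cells (17 of 202) lie above the lineages as a whole.

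NK-lineage members, 14 in all, held 3 to 44 UMIs of Ncr1, the gene that assigned them. Eomes, the NK transcription factor, was at 419 CPM in their sum, against 572 CPM in the other NK-lineage cells. Prf1 (perforin) was at 110 CPM in GS, 185 in URI, 747 in WT replicate 1 and 187 in WT replicate 2 cycling NK cells, against 1501, 1701, 1619 and 1392 CPM in the others. Gzmb was at 110, 277, 503 and 0 CPM against 1412, 1773, 1912 and 2009 CPM. Gzma, another granzyme, was at 1208, 2145, 10059 and 561 CPM against 6710, 5477, 8778 and 4499 CPM, higher in the cycling cells of WT replicate 1 and lower in those of the other libraries. Each of these values rests on 1 to 7 cells per library.

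Of the 17 granulocyte-lineage members, 13 held at least 10 UMIs of Camp, a gene of the secondary granules that neutrophil precursors make. The deepest URI barcode, of 38878 UMIs, held 1150 UMIs of Camp (encoding the antimicrobial cathelicidin), 879 of Ltf (lactoferrin) and 2790 of Ngp, with 303 mitotic and 125 replication UMIs. The 2 members in WT replicate 1 held 948 and 365 Camp UMIs. Of all kept cells with at least 10 Camp UMIs, 0 of 8 cycled in GS, 11 of 135 in URI (8.15%, interval 4.14 to 14.1), 2 of 12 in WT replicate 1 and 0 of 18 in WT replicate 2. The URI count includes the 7 agreeing barcodes. In GS, 0 of 951 granulocyte-lineage cells cycled, which allows a share of up to 0.315% by a limit of 3 counts (exact 95% upper bound 0.387%), and in WT replicate 2, 0 of 1545 allows up to 0.194% (0.238%). URI held a granulocyte-lineage barcode with 18 Mpo, 23 Cd34 and 19 Kit UMIs, genes of myeloid progenitors, and 2 more with 58 and 59 Csf3r UMIs beside 10 or 11 Cd3e UMIs, both marked by Scrublet.

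The 5 monocyte-lineage members, all in URI, held 6 to 18 Csf1r UMIs and 5 to 11 Ccr2 UMIs, the receptor by which monocytes leave marrow. All 5 also held Csf3r (1 to 8 UMIs), a marker of the granulocyte rule, which was at 168 CPM in them. In the other monocyte-lineage cells Csf3r was at 344 CPM. None of the 5 held Cd3e or Cd79a, 1 held 3 Ncr1 UMIs, and 1 was marked by Scrublet. Gzma, Prf1 and Eomes reached 19, 9 and 6 UMIs, each in 1 of the 5. F13a1 reached 54 UMIs in 1 of them, and Cd34 reached 32 and 43 UMIs in 2 others, of which 1 also held 67 Mpo and 21 Flt3 UMIs. The GS and WT libraries had no such member, out of 103 monocyte-lineage cells in GS, 121 in WT replicate 1 and 205 in WT replicate 2, against 183 in URI. A URI member with no lineage marker held 14 UMIs of Clec9a, a dendritic cell receptor.

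Summed UMIs of all members were compared between genotypes with edgeR's quasi-likelihood test over 9485 genes. For GS against WT, 7 genes passed an adjusted p of 0.05 (0.0738% of genes tested), 2 higher and 5 lower in GS, and for URI against WT 20 genes passed (0.211%), 18 higher and 2 lower in URI. The 2 WT libraries were the only source of replicate spread (1 residual degree of freedom), and WT replicate 2 had 12 members. DESeq2 called 0 genes for GS, with 27 at an unadjusted p under 0.05 (116 with edgeR), and 4 for URI. Without WT replicate 1, whose 84 members set most of the WT values, 5 of the 6 GS genes and 10 of the 19 URI genes with a value moved by over 1 SE, and Ighg2b turned from a log2 difference of -9.07 to one of 2.39 in URI.

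No cell cycle gene passed for either genotype, with 0 of 123 tested genes called in each by edgeR or DESeq2, and 0 in GS and 3 in URI at an unadjusted edgeR p under 0.05. At that level stood 1.22% of all genes for GS and 2.38% for URI, and with so few genes called over all, a count of 0 among 123 is near the background. The kinetochore list had a median log2 difference of -0.37 for GS and -0.64 for URI, against medians of 0.00455 and 0.00668 over all genes tested. Of its 19 genes, 10 lay below both WT values in GS and 14 did in URI, where 17.8% and 19.4% of all genes tested did. Replication licensing had a median of 0.25 in GS and -0.07 in URI, with 11 of 17 genes above both WT values in GS and 1 of 17 in URI, where 35.9% and 33.5% of all genes tested were. Ccnb2 differed by -0.50 (SE 0.56, edgeR adjusted p = 1) in GS and -0.75 (SE 0.56, edgeR adjusted p = 1) in URI. Mki67 had a log2 difference of -0.27 and Top2a of 0.26 in GS, and -0.64 and -0.58 in URI, values that the membership rule bears on. Uri1 was at 102 CPM in GS, 96.9 in URI, 72.6 in WT replicate 1 and 125 in WT replicate 2 members, and Glul at 54.7, 78.3, 48.4 and 51.9 CPM, so neither targeted gene was lower in leukocytes of its own deletion than in both WT libraries.

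Several of the called genes came from 1 or a few cells. Within the libraries compared, in the one where the gene's level was highest, a single member supplied at least 50% of its UMIs for 6 of the 7 GS genes and 8 of the 20 URI genes. Ighg2c (ENSMUSG00000076612, chromosome 12, 113285325 to 113288932, an antibody heavy chain gene) had 114 UMIs in GS members and 0 in URI and WT members, all 114 from 1 cell. It was at least 55.2-fold higher in GS than the floor of 3 UMIs over both WT libraries, with an edgeR adjusted p of 0.00101. Ighg1, another heavy chain gene, had 19295 UMIs in URI against 100 and 1 in the WT libraries, and 99.6% of the URI UMIs came from 1 barcode. The light chain segment Igkv6-25 had 600 UMIs in 1 URI cell and 0 in WT members. Prss34, a basophil protease, had 301 UMIs in 1 URI cell. The T cell receptor segment Trbv20 had 0 UMIs in GS, 1 in URI, 138 in WT replicate 1 (in 12 cells) and 1 in WT replicate 2, with edgeR adjusted p of 0.0325 for GS and 0.00408 for URI.

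Cxcl10, the interferon-induced chemokine that attracts activated T cells, rose in GS. It had 67 UMIs in 7 GS members, 30 in 16 URI members and 1 each in WT replicates 1 and 2, a log2 difference of 5.33 (SE 1.02, edgeR adjusted p = 0.0325) for GS. A single cell held 65.7% of the GS UMIs. Camp fell in GS (log2 difference -12.18, edgeR adjusted p = 0.0325), with 0 UMIs in GS, 3270 in URI, 1313 in WT replicate 1 and 1 in WT replicate 2, so the GS value lay with that of WT replicate 2. All 1313 UMIs of WT replicate 1 came from 2 cells, 72.2% of them from 1, and GS had 0 granulocyte-lineage members, a lineage that Camp itself helps to define.

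Fn1, fibronectin, which monocytes carry, had 0 UMIs in GS, 543 in URI, and 1 and 0 in the WT libraries (log2 difference 8.43, SE 0.87, edgeR adjusted p = 2.12e-06), with 71.6% from 1 cell. F13a1, a coagulation factor chain of monocytes, had 139 UMIs in 8 URI members, 2 in GS and 0 in WT members, at least 34.8-fold higher than the floor. Mpeg1, the macrophage perforin, had 239 UMIs in 15 URI members, 4 in GS, and 6 and 0 in WT (log2 difference 4.89, SE 0.77, edgeR adjusted p = 0.00142). Tgfbi, an extracellular matrix protein, had 147 UMIs in 14 URI members, 0 in GS, and 1 and 0 in WT. URI held 15 granulocyte-lineage and 5 monocyte-lineage members, against 2 and 0 in WT replicate 1 and none in WT replicate 2, and their part in these calls was not tested.

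Other calls were spread over more cells. Alox5ap, which serves leukotriene synthesis, had UMIs in 32 URI members, and Apoe, a lipid carrier, in 29. The 2 highest members supplied 29.2% of the URI UMIs of Alox5ap and 51.8% of those of Apoe. Ddx3y and Eif2s3y, both Y-linked, were spread most widely. Ddx3y had 231 UMIs in 62 of 96 URI members, 57 in 23 of 64 GS members, and 2 UMIs each in WT replicates 1 and 2 (log2 difference 5.17, SE 0.83, edgeR adjusted p = 0.00159). Eif2s3y had 157 UMIs in 60 URI members, 41 in 19 GS members, and 0 and 1 in WT. Among the other cells of the same libraries Ddx3y was at 79.7 CPM in GS, 224 in URI, and 4.85 and 118 in WT replicates 1 and 2. The labels do not give the sex of the pooled mice, and its part in these calls was not tested. In T-lineage members alone, 10 of 8979 genes tested passed for GS and 17 of 8979 for URI. These members include the 11 Jchain-rich barcodes that the rule called T-lineage, and 1 T-lineage member held 19224 Ighg1 UMIs.

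Contrasts between the dividing lineages were planned only where each library held at least 20 cycling cells of both lineages. No pair met this, since WT replicate 2 held 6 T-lineage members, and none was run.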

How the data were processed

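Raw UMI counts per gene and barcode were deposited by the authors for 4 libraries, made with Cell Ranger 8.0.0 on mm10 per the submitters' processing notes and per the file headers. No group had separate libraries of single mice, so p-values measure the spread between 2 pooled WT libraries. The replicate origin beyond the pool of 5 mice is not given in the sources used here. The members and lists were chosen with earlier results of these data known. Cells had at least 500 UMIs, 250 genes and at most 10% mitochondrial UMIs. Kept cells had medians of 4445 (GS), 4971 (URI), 3762 and 2657 UMIs (WT). Doublets were kept and marked with Scrublet in scanpy 1.11.5 as the top 5% of scores in each library, because its automatic threshold marked 0 of 8478 cells in WT replicate 1. Members' counts were summed per library and tested with edgeR 4.0.16 (TMM, quasi-likelihood, Benjamini-Hochberg), tested on simulated data first. DESeq2 1.42.0 was an alternative. CPM is a gene's UMIs per 1000000 UMIs of the summed cells, and probe sets differ between genes, so levels were compared within a gene. Barcodes agreed when a chi-square test over at least 100 genes with 5 or more summed UMIs gave p over 0.05. Named genes passed an adjusted p of 0.05 with a mean of at least 20 CPM and a level outside both WT values. Ighg2b falls outside that rule and was named after its values were seen. Intervals are exact Clopper-Pearson 95% and cover counting error only. A floor is 3 UMIs over the group.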

Additional observations from a re-analysis of the deposited data

How the results depend on the processing

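With at least 2 UMIs of Mki67 and Top2a the cycling share was 1.72% in GS, 2.28% in URI, 1.72% in WT replicate 1 and 0.631% in WT replicate 2, and with at least 5 UMIs 0.497%, 0.561% and 0.743% in GS, URI and WT replicate 1. Thinning to 2000 UMIs gave 0.371%, 0.428% and 0.553% in those 3 libraries. Where a UMI of exactly 1 lineage was required, T-lineage cells were 68.8% of members in GS, 43.8% in URI and 59.5% in WT replicate 1, B-lineage cells 3.13% in GS, 5.95% in WT replicate 1 and 0% in WT replicate 2, and monocyte-lineage cells 0% in URI. The 5 monocyte-lineage members of URI all held Csf3r, a marker of the granulocyte rule. Against 7 genes called for GS, DESeq2 called 0, no filter on low counts 24, at least 5 UMIs 14, removal of Scrublet doublets 15 and agreeing barcodes counted once 19. Against 20 called for URI, DESeq2 called 4, no filter 37 and at least 5 UMIs 81. Of the 7 GS genes, 7 were called with agreeing barcodes counted once, and of the 20 URI genes 20 were. For Ighg2b, leaving out WT replicate 1 gave a URI log2 difference of 2.39, and leaving out WT replicate 2 one of -9.98. The cause was not tested. Counting agreeing barcodes once and T-lineage cells alone were alternatives chosen after seeing the data. No paired analysis was possible because the groups share only replicate number 1. WT replicate 2 had 12 members, which limits every contrast with WT.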
